A study of Mus musculus with 16 samples.

Results

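The genes described here are the T cell receptor complex and the proteins that carry its signal, 32 genes in all, taken by symbol from a mouse count table of 19574 genes. No rule on their values in a comparison selected them, but they were chosen with earlier results of these data known. Cd2, Cd3e and Cd3g are also among the genes that the study labelled in a heatmap of these same samples. That heatmap holds genes that rose in WT tumors and not in Il23rΔTreg tumors. All 32 passed the filter on low counts, and each had at least 1 count in every library, with 1 to 3341 counts per gene and library. They fall into 6 roles, which are the CD3 and zeta chains (4 genes), the coreceptor and other surface receptors (7), kinases (4), adaptors, regulators and an exchange factor (11), transcription factors (2), and lymphocyte GTPases and trafficking proteins (4).

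The T cell receptor recognizes peptides on MHC molecules through its alpha and beta chains, which cannot signal by themselves. The signal passes through the CD3 and zeta chains, whose tyrosine motifs are phosphorylated by the kinase LCK and then bound by the kinase ZAP-70. ZAP-70 phosphorylates the adaptors LAT and SLP-76, on which enzymes assemble that raise calcium, activate RAS and reach protein kinase C theta. In the colon, T cells lie in the lamina propria, between epithelial cells and in lymphoid follicles, and regulatory T cells (Treg cells) carry the same receptor complex as other T cells.

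Whole-tissue RNA was sequenced from male mice that developed colon tumors after azoxymethane (AOM, a carcinogen, 10 mg/kg by intraperitoneal injection) and 3 cycles of 5 days of 3.5% dextran sodium sulfate (DSS, which injures the colon epithelium), with 16 days of recovery. The mice were 7 to 8 weeks old at the start. The groups were tumors of Il23rΔTreg mice (genotype Il23r fl/fl Foxp3 YFP-Cre, n = 5), adjacent normal full-thickness colon of the same 5 mice, tumors of WT mice (Foxp3 YFP-Cre, n = 3) and adjacent normal colon of the same 3 mice. The Foxp3 promoter drives Cre in Treg cells, so the genotype is designed to remove the receptor of interleukin-23 from those cells and not from others. The WT mice carry the Foxp3 YFP-Cre allele too. Mice are named by the numbers in the labels, mouse2901, mouse2902, mouse2903, mouse2904 and mouse3883 for Il23rΔTreg and mouse2988, mouse2989 and mouse2990 for WT, and values are given in that order.

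Total counts per library ran from 34418067 to 60836474. Il23r was at 0.0224 to 0.126 CPM (counts scaled to library size) in Il23rΔTreg tumors and 0 to 0.162 CPM in WT tumors, a level in whole tissue that cannot check a deletion limited to Treg cells. Rn18s, a ribosomal RNA, took 0.343 to 9.45% of counts in Il23rΔTreg tumors and 6.62 to 29.7% in WT tumors. The highest share was in the tumor library of WT mouse2988, which also had the lowest normalization factor (0.670). The 3 WT mice shared 1 cage label that no Il23rΔTreg mouse carried, and genotype cannot be told apart from cage. In bulk tissue, fewer T cells and less RNA per T cell cannot be told apart either.

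Most T cell receptor genes rose in the tumors of WT mice, few rose in the tumors of Il23rΔTreg mice, and most were lower in Il23rΔTreg than in WT tumors. Values are CPM on library sizes scaled by TMM (trimmed mean of M values). A gene was called at an adjusted p under 0.05 (Benjamini-Hochberg over 17122 genes, edgeR's quasi-likelihood test) with a log2 fold change beyond 1. In Il23rΔTreg mice, 11 of 32 genes fell in tumors against adjacent normal tissue, where 16.1% of all genes tested were lower, and 3 were higher, against 9.53% of all genes. In WT mice, 21 of 32 genes were higher in tumors, where 12.1% of all genes were higher, and 0 were lower, against 12.9%. At an unadjusted p under 0.05, 0 of the 32 were lower too, against 24.5% of all genes, and DESeq2 also called 0 lower. Between Il23rΔTreg and WT tumors, 19 of 32 genes were lower, where 1.58% of all genes were lower, and 0 were higher, against 0.146%. At an unadjusted p under 0.05, 0 of the 32 were higher too, against 8.62% of all genes, and DESeq2 also called 0 higher. The median log2 fold change of the 32 genes was -0.76 in Il23rΔTreg mice, 1.54 in WT mice and -1.88 between the tumors, and that of all genes was between -0.01 and 0.01 in each of these.

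**Figure D1:**
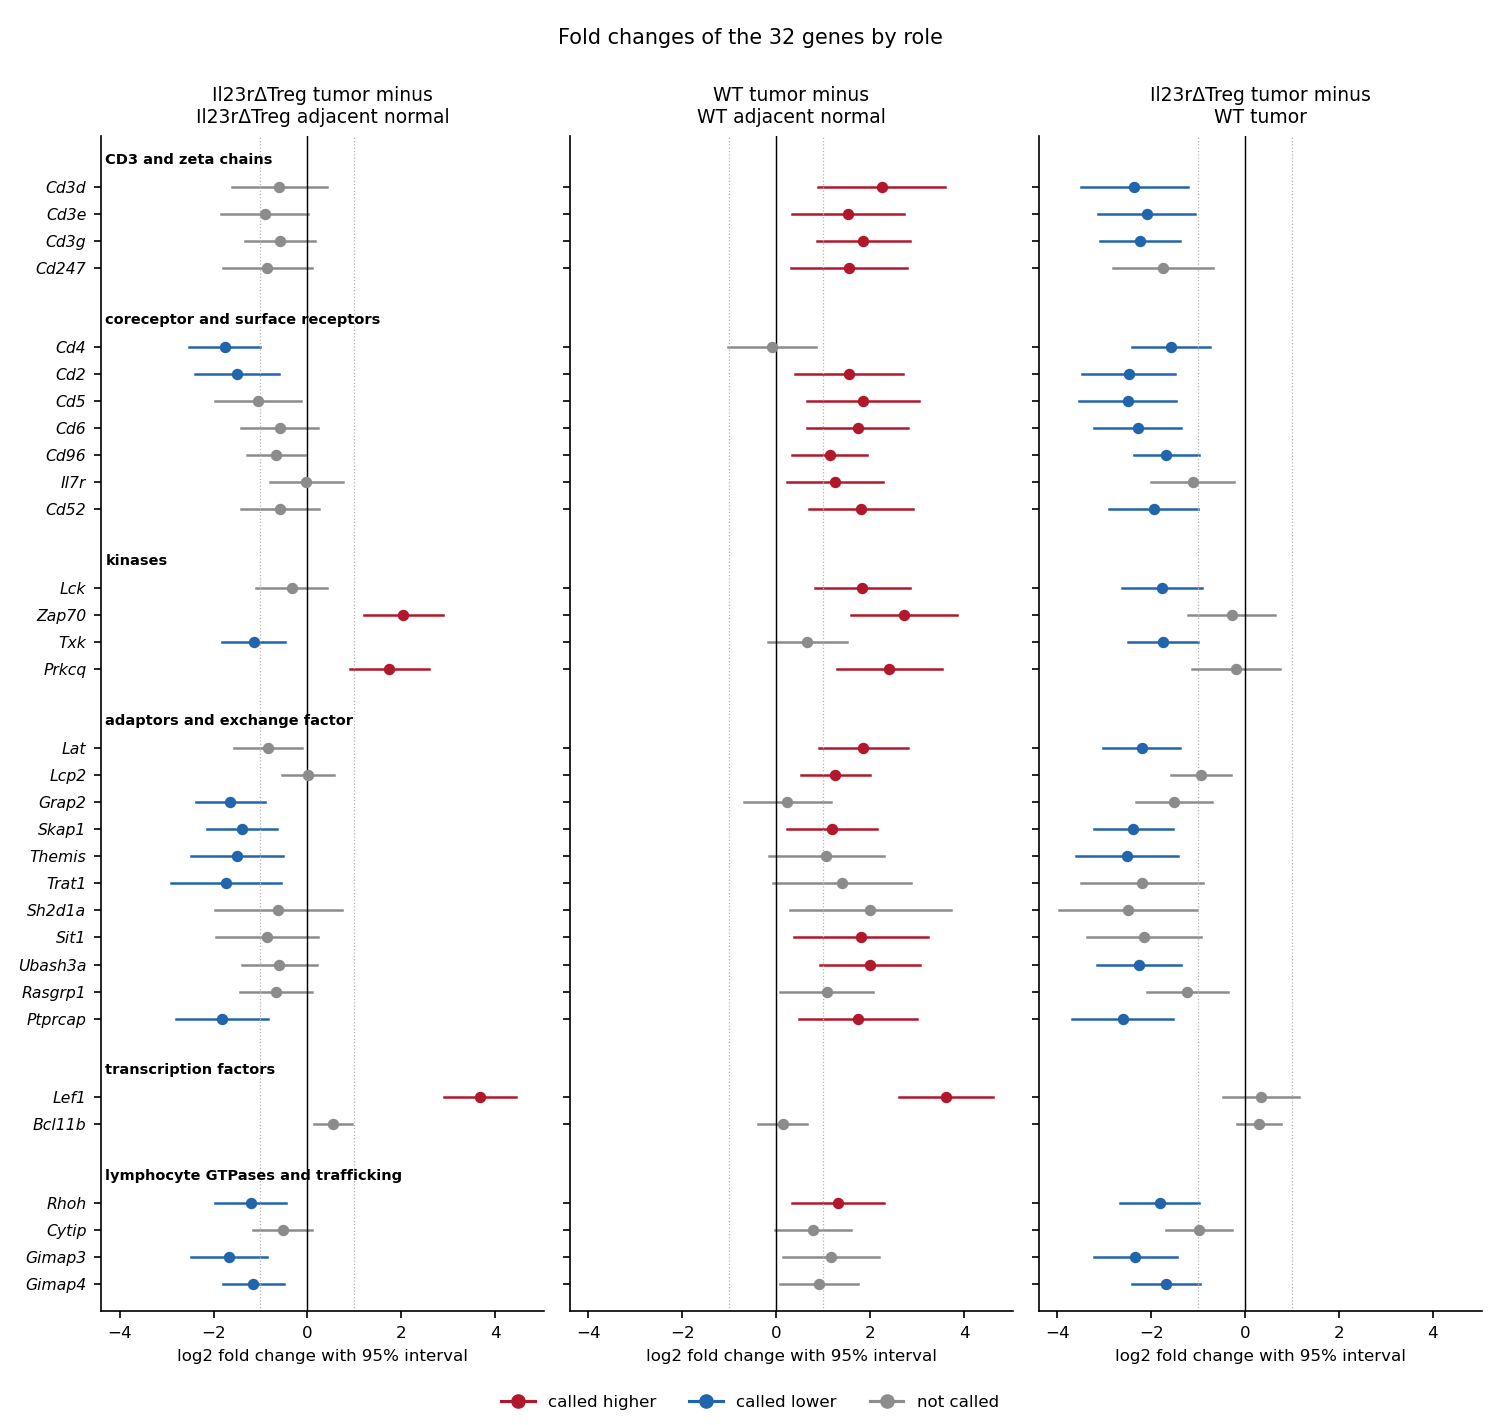
Log2 fold changes (horizontal axis) with 95% intervals of the 32 genes, grouped by role down the page, for Il23rΔTreg tumor minus adjacent normal, WT tumor minus adjacent normal, and Il23rΔTreg tumor minus WT tumor, colored by whether the gene was called. In the right panel 19 genes were called lower, and Zap70, Prkcq, Lef1 and Bcl11b lie near 0.

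The groups of tumors seldom overlapped. All 5 Il23rΔTreg tumors lay below all 3 WT tumors for 27 of the 32 genes, which held for 7.09% of all genes, and the exceptions were Il7r, Zap70, Prkcq, Lef1 and Bcl11b. For 0 of the 32 did all Il23rΔTreg tumors lie above all WT tumors, against 9.34% of all genes. All 3 WT tumors lay above all 3 WT adjacent normal samples for 26 genes, against 23.4% of all genes. In Il23rΔTreg mice, 5 genes (Cd4, Grap2, Skap1, Trat1 and Txk) were lower in every tumor than in every adjacent normal sample, against 20% of all genes. Lef1 was the 1 gene higher there without overlap, against 17.2% of all genes.

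The number of genes called depended on single mice, while no called gene changed direction when a mouse or library was left out. Between the tumors, 28 of the 32 genes were lower at an unadjusted p under 0.05, against 11.7% of all genes. However, 0 of the 32 were called by edgeR without mouse2902, mouse2903, mouse3883, mouse2988 or mouse2989, or without only the WT tumor of mouse2988, where 26 to 28 of them still had an unadjusted p under 0.05. The loss was shared by other genes, since 0 to 10 of all genes were called lower in those fits, against 271 with all libraries. The median log2 fold change of the 32 genes in those fits lay between -2.02 and -1.79. With all libraries, DESeq2 called 25 of the 32 lower, and 636 of all genes lower, against 271 in edgeR. Leaving out only the WT tumor of mouse2989 left 3 calls, and leaving out only the tumor of Il23rΔTreg mouse2901, mouse2902, mouse2903 or mouse3883 left 6, 9, 12 or 10. In these fits 57, 81, 92, 119 and 112 of all genes were called lower.

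In WT mice, 9 genes were called higher without mouse2989 and 7 without mouse2990, with medians of 1.36 and 1.44. Of all genes 2222 were higher without mouse2989 and 1447 without mouse2990, against 2067 with all libraries. Without only the tumor of mouse2988 or mouse2989, 13 were called, and without only the adjacent normal sample of mouse2989 or mouse2990, 11 or 8, with 1590 to 2365 of all genes higher in these fits. In Il23rΔTreg mice, 4 genes instead of 11 were lower without mouse2901 (Cd4, Grap2, Gimap3 and Ptprcap), and 6 without only its adjacent normal sample, where 2453 and 2618 of all genes were lower, against 2764 with all libraries. The tumor and adjacent normal libraries of this mouse carry different cage labels, which leaves its pairing less certain. The 3 genes higher in Il23rΔTreg tumors, Zap70, Prkcq and Lef1, were called in every fit.

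**Figure D2:**
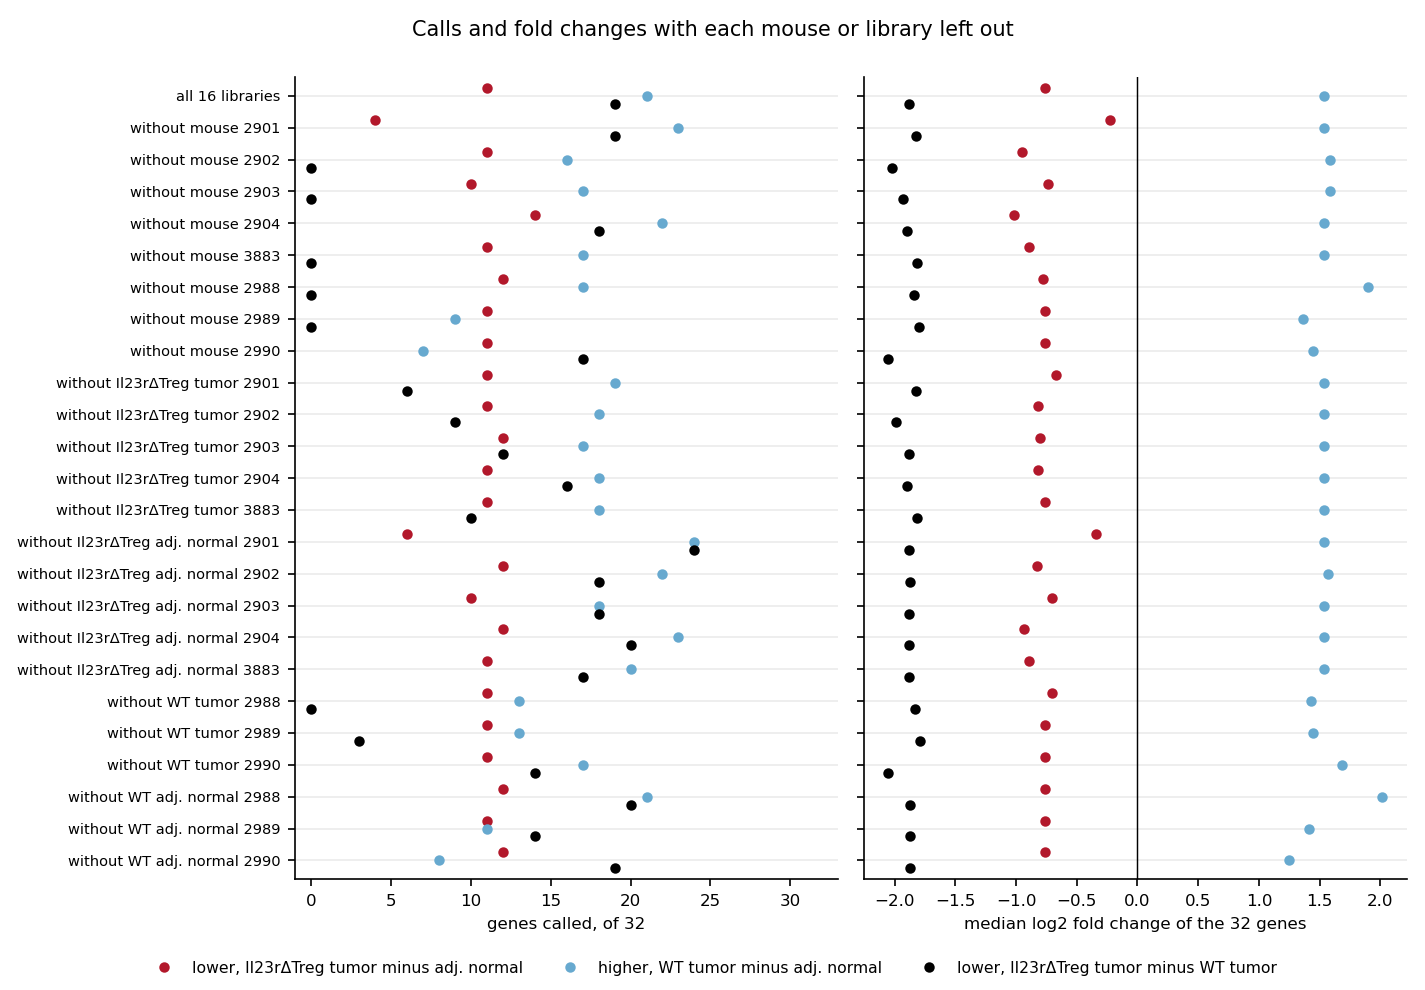
Number of the 32 genes called (left) and their median log2 fold change (right) in fits with all 16 libraries, with each mouse left out and with each library left out, by comparison. For Il23rΔTreg tumor minus WT tumor, the calls drop to 0 in several fits while the median stays between -2.05 and -1.79.

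The adjacent normal library of Il23rΔTreg mouse2901 held the highest value of its group for 27 of the 32 genes. It also had the highest summed CPM of 10 B cell markers, 364, where the other Il23rΔTreg adjacent normal libraries had 23.4 to 183, and of 8 pan-leukocyte markers, 702, where the others had 155 to 351. All 10 B cell markers were lower in Il23rΔTreg tumors than in Il23rΔTreg adjacent normal tissue, with sums of 3.68 to 14.4 CPM in the tumors, and none was at 0 throughout. The part of B cells in the values of this library was not tested.

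The CD3 chains, gamma, delta and epsilon, and the zeta chain (Cd247) are the signaling chains of the receptor. None of the 4 was called in Il23rΔTreg mice, all 4 rose in the tumors of WT mice, and Cd3d, Cd3e and Cd3g were lower in Il23rΔTreg than in WT tumors. Cd3g had 2.41, 2.90, 2.52, 4.0 and 2.22 CPM in Il23rΔTreg tumors and 8.26, 2.49, 4.48, 3.12 and 2.76 CPM in Il23rΔTreg adjacent normal tissue. It had 18.1, 11.6 and 10.1 CPM in WT tumors and 5.63, 3.53 and 1.83 CPM in WT adjacent normal tissue. The WT tumors were the 3 highest of all samples, above even the adjacent normal library of mouse2901. The log2 fold change of Cd3g between Il23rΔTreg and WT tumors was -2.24 (SE 0.40, adjusted p = 0.0203, edgeR's quasi-likelihood test), and it ran from -2.40 to -1.95, with an adjusted p of at most 0.0744, over the fits that left out a mouse or library.

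Cd3d had 1.43, 1.81, 1.35, 1.45 and 1.46 CPM in Il23rΔTreg tumors, against 10.1, 6.98 and 6.11 CPM in WT tumors. In adjacent normal tissue it had 5.61, 1.55, 2.41, 0.950 and 0.875 CPM in Il23rΔTreg mice and 2.78, 1.58 and 0.545 CPM in WT mice. The Il23rΔTreg tumors thus held a narrow range, well under the WT tumors (log2 fold change -2.36, SE 0.54, adjusted p = 0.0386, edgeR). Cd3e had 1.10, 1.2, 1.24, 2.17 and 1.17 CPM in Il23rΔTreg tumors, against 5.61, 7.22 and 4.73 CPM in WT tumors (log2 fold change -2.10, SE 0.48, adjusted p = 0.0399, edgeR). Its adjacent normal values were 6.04, 1.78, 1.89, 1.28 and 1.93 CPM in Il23rΔTreg mice and 3.56, 1.71 and 0.857 CPM in WT mice. Among the Il23rΔTreg samples only the adjacent normal library of mouse2901 reached the WT tumors for Cd3e.

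Cd247 had 1.12, 1.77, 1.58, 1.53 and 1.05 CPM in Il23rΔTreg tumors, against 6.34, 4.36 and 3.53 CPM in WT tumors. It had 5.24, 2.19, 3.06, 1.03 and 1.24 CPM in Il23rΔTreg adjacent normal tissue and 2.94, 1.33 and 0.623 CPM in WT adjacent normal tissue. The tumors did not overlap between genotypes, but the log2 fold change of -1.75 (SE 0.50) missed the threshold (adjusted p = 0.0783, edgeR). Within WT mice Cd247 was higher in tumors (log2 fold change 1.55, SE 0.58, adjusted p = 0.0458, edgeR).

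**Figure D3:**
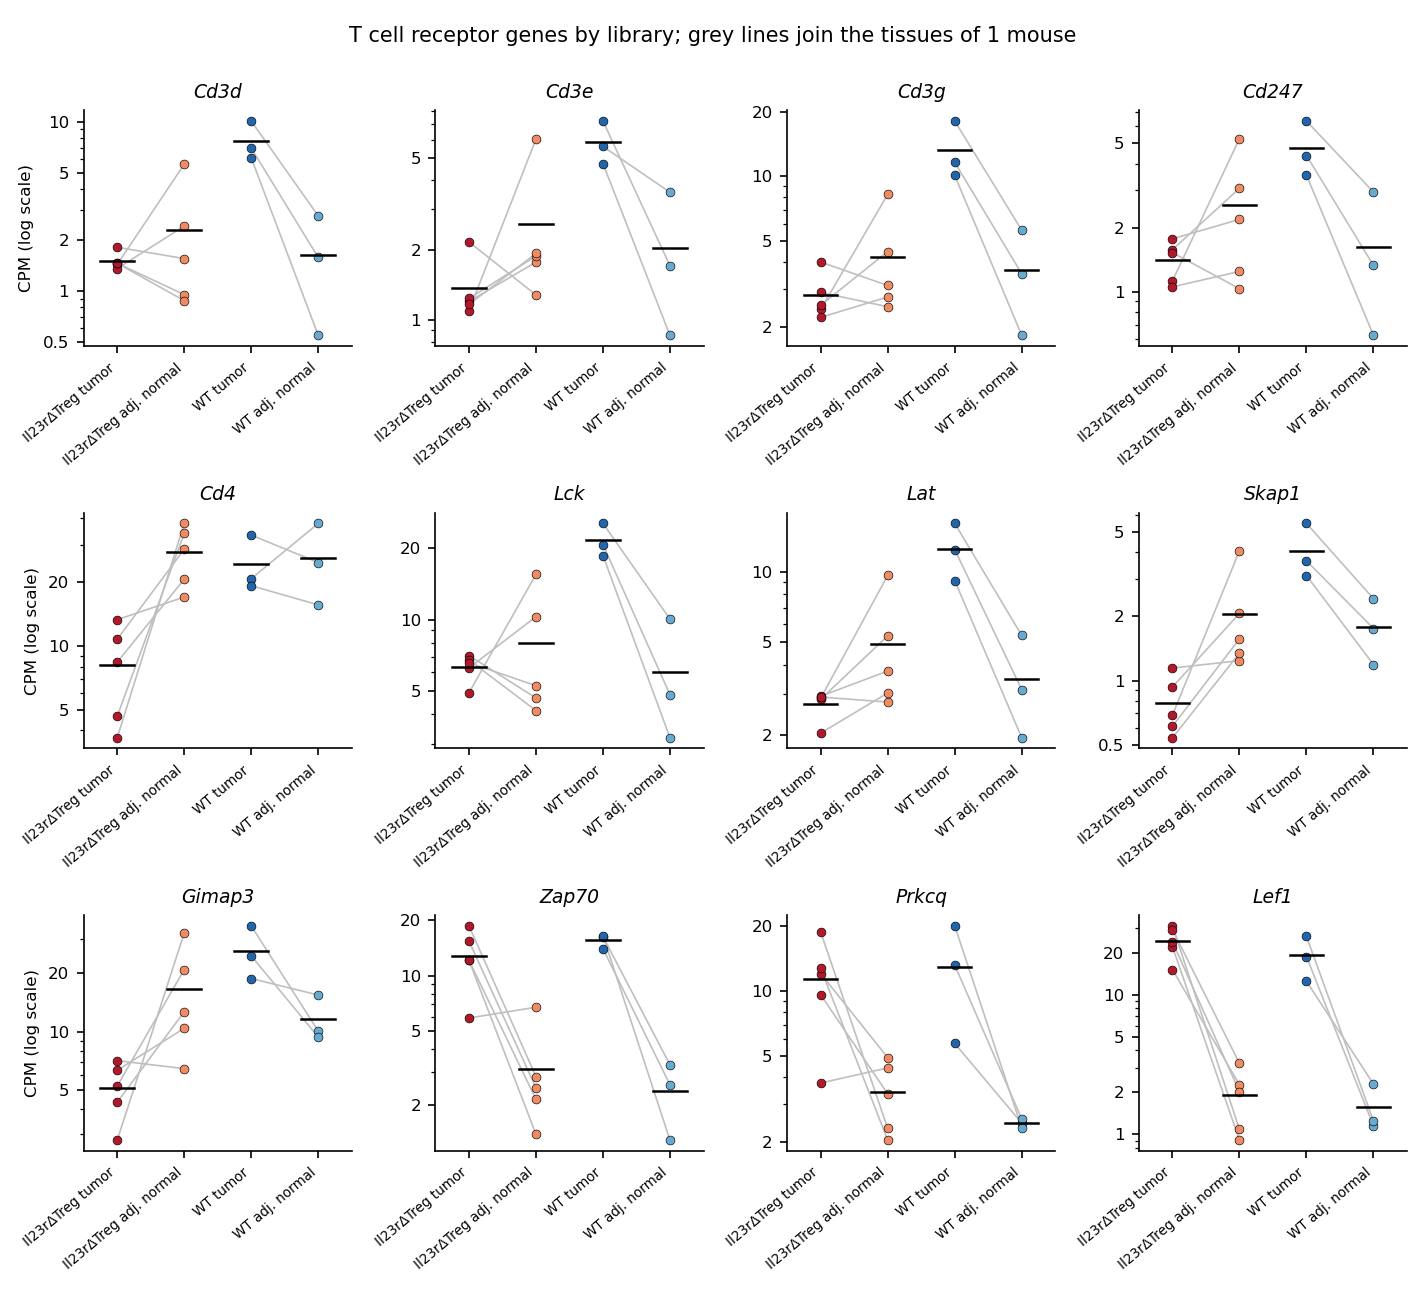
CPM (log axis) of 12 of the genes in each library of Il23rΔTreg tumors, Il23rΔTreg adjacent normal tissue, WT tumors and WT adjacent normal tissue. Bars are means and grey lines join the tissues of 1 mouse. For Cd3d, Cd3e, Cd3g, Cd247, Lck, Lat and Skap1 the Il23rΔTreg tumors lie below the WT tumors, whereas for Zap70, Prkcq and Lef1 the tumors of the genotypes overlap.

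Start-site sequences are given for 5 genes, Cd3d, Cd3g and Lat, which were all lower in Il23rΔTreg than in WT tumors, and Prkcq and Lef1, which were not. Cd3d and Cd3g are neighbors on opposite strands, with start sites 1355 bases apart. The windows come from RefSeq (GRCm38.p6), which matched 25 of the 32 genes, and span 250 bases before to 50 bases after the start, 5′ to 3′ on the gene's strand. They are chr9:44981536-44981835 (plus strand) for Cd3d, chr9:44980382-44980681 (minus strand) for Cd3g, chr7:126369519-126369818 (minus strand) for Lat, chr2:11172132-11172431 (plus strand) for Prkcq and chr3:131110047-131110346 (plus strand, 1 of 4 starts in that table) for Lef1. Capitals mark matches on either strand to the letters CNGGAA (the core of ETS factor sites), TGTGGT (RUNX) and CTTTGA (TCF/LEF), none of which overlap here.
Cd3d: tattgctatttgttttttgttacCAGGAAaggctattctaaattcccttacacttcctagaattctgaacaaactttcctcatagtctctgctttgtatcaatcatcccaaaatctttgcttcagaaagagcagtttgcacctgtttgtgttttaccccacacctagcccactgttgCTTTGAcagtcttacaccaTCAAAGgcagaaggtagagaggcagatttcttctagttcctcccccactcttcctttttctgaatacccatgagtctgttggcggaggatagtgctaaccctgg
Cd3g: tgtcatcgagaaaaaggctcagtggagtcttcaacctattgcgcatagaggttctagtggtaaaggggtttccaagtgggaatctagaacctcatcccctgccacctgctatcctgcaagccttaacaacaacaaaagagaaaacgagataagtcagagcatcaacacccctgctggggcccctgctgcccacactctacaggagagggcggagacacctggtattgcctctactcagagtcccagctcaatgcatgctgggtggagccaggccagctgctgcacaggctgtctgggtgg
Lat: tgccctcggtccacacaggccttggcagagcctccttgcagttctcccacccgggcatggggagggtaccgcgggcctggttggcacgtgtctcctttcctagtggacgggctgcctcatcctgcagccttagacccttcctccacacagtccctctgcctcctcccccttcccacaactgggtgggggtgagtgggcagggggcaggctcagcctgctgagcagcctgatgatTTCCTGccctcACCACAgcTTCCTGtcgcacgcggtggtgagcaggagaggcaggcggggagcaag
Prkcq: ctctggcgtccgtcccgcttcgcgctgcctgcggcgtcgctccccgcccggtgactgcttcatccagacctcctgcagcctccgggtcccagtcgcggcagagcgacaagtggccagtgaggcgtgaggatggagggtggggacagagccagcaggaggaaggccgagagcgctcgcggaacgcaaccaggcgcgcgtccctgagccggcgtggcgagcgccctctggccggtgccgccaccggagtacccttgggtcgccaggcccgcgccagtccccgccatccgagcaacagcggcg
Lef1: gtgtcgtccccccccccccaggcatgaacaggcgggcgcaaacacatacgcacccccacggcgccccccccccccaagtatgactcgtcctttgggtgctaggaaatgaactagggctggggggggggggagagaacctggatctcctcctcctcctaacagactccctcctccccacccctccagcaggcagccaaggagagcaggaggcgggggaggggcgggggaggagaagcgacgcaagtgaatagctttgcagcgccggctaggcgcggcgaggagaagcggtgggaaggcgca
The Cd3d window held 1 ETS and 2 TCF/LEF matches, and the Lat window held 2 ETS matches and 1 RUNX match. The windows of Cd3g, Prkcq and Lef1 held 0 matches to these letters. Over the 33 windows of the 25 matched genes, ETS letters were in 69.7%, RUNX letters in 27.3% and TCF/LEF letters in 30.3%, against 61.7%, 16.8% and 16% of all 32851 mouse windows of this length. A match is a run of letters and not a site shown to be bound.

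Of the 7 surface receptors, 2 were lower in Il23rΔTreg tumors than in their adjacent normal tissue, 6 were higher in WT tumors than in theirs, and 6 were lower in Il23rΔTreg than in WT tumors. Cd4, the coreceptor that binds MHC class II and is also carried by some mouse dendritic cells and gut macrophages, differed from the CD3 chains in where it was high. It had 3.69, 8.38, 10.8, 13.3 and 4.66 CPM in Il23rΔTreg tumors and 37.8, 20.6, 28.6, 17.0 and 33.9 CPM in Il23rΔTreg adjacent normal tissue. In WT mice it had 20.7, 33.3 and 19.2 CPM in tumors and 37.8, 24.7 and 15.6 CPM in adjacent normal tissue. All 5 Il23rΔTreg tumors were below every other sample, and the WT tissues overlapped (log2 fold change -0.09, SE 0.45). Cd4 was lower in Il23rΔTreg tumors both than in their adjacent normal tissue (log2 fold change -1.76, SE 0.36, adjusted p = 0.000837, edgeR) and than in WT tumors (-1.58, SE 0.39, adjusted p = 0.0480, edgeR). The call within Il23rΔTreg mice held without each mouse or library, with an adjusted p of at most 0.00723, and the call between tumors was lost in several such fits, with an adjusted p of up to 0.14.

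Cd2, an adhesion receptor of T and NK cells that binds CD48 in mice, had 1.78, 1.71, 2.34, 2.55 and 1.21 CPM in Il23rΔTreg tumors and 12.1, 2.93, 6.19, 1.92 and 3.85 CPM in Il23rΔTreg adjacent normal tissue. It had 14.1, 10.8 and 7.26 CPM in WT tumors and 5.12, 3.31 and 2.47 CPM in WT adjacent normal tissue. Cd2 fell in Il23rΔTreg tumors and rose in WT tumors, with log2 fold changes of -1.49 (SE 0.42) and 1.56 (SE 0.54), and it differed by -2.48 (SE 0.47) between the tumors. Cd6, a scavenger receptor family protein that tunes T cell activation, had 1.42, 2.04, 2.57, 2.24 and 1.79 CPM in Il23rΔTreg tumors, against 10.7, 10.9 and 7.87 CPM in WT tumors. Its adjacent normal values were 6.12, 2.09, 3.91, 1.18 and 1.83 CPM in Il23rΔTreg mice and 4.42, 2.84 and 1.60 CPM in WT mice. The WT tumors were the 3 highest samples for Cd6 (log2 fold change -2.29 between Il23rΔTreg and WT tumors, SE 0.43, adjusted p = 0.0219, edgeR), and the Il23rΔTreg tumors lay within the range of adjacent normal tissue.

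Cd5, a relative of Cd6 that dampens receptor signal, ranged over 0.807 to 2.12 CPM in Il23rΔTreg tumors and 5.52 to 8.67 CPM in WT tumors (log2 fold change -2.50, SE 0.48). Cd96, a receptor of T and NK cells, ranged over 0.686 to 1.19 CPM in Il23rΔTreg tumors and 2.61 to 3.41 CPM in WT tumors (-1.67, SE 0.33). Cd52, a small anchored glycoprotein that other leukocytes carry too, ranged over 12.8 to 23.7 CPM in Il23rΔTreg tumors and 45.5 to 106 CPM in WT tumors (-1.95, SE 0.44). All 3 passed the test between tumors. Il7r, the interleukin-7 receptor alpha chain of resting T cells and innate lymphoid cells, did not, with 4.30 to 5.32 CPM in Il23rΔTreg tumors and 4.79 to 14.1 CPM in WT tumors (log2 fold change -1.12, SE 0.41, adjusted p = 0.162, edgeR).

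The 4 kinases did not move together. Lck, which starts the signal by phosphorylating the CD3 and zeta chains, had 4.93, 7.07, 6.27, 6.77 and 6.59 CPM in Il23rΔTreg tumors and 25.3, 20.6 and 18.6 CPM in WT tumors. In adjacent normal tissue it had 15.5, 4.69, 10.3, 4.15 and 5.28 CPM in Il23rΔTreg mice and 10.0, 4.84 and 3.19 CPM in WT mice. As for Cd3g, the WT tumors were the 3 highest samples (log2 fold change between Il23rΔTreg and WT tumors -1.77, SE 0.40, adjusted p = 0.0383, edgeR). Txk, a TEC family kinase of T cells, had 0.407, 0.667, 0.661, 0.572 and 0.403 CPM in Il23rΔTreg tumors and 1.57, 0.785, 1.80, 0.888 and 0.976 CPM in Il23rΔTreg adjacent normal tissue. It had 1.55, 2.17 and 1.76 CPM in WT tumors and 1.67, 0.698 and 1.11 CPM in WT adjacent normal tissue. The Il23rΔTreg tumors were the 5 lowest samples for Txk, which was called lower there in both comparisons (log2 fold changes -1.15, SE 0.31, against adjacent normal tissue and -1.75, SE 0.35, against WT tumors).

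Zap70 and Prkcq were higher in the tumors of both genotypes. Zap70, the kinase that binds phosphorylated CD3 and zeta chains, had 5.90, 15.4, 18.6, 12.1 and 12.1 CPM in Il23rΔTreg tumors and 6.75, 2.47, 2.84, 1.38 and 2.14 CPM in Il23rΔTreg adjacent normal tissue. It had 16.3, 14.0 and 16.5 CPM in WT tumors and 3.29, 2.57 and 1.29 CPM in WT adjacent normal tissue. Only mouse2901 had less Zap70 in its tumor than in its own adjacent normal tissue. The log2 fold change was 2.04 (SE 0.40, adjusted p = 0.000634, edgeR) in Il23rΔTreg mice and 2.72 (SE 0.53, adjusted p = 0.00118, edgeR) in WT mice. Between the tumors it was -0.28 with a 95% interval from -1.21 to 0.65, which leaves room for a difference in either direction.

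Prkcq, protein kinase C theta, links the receptor to NF-κB and is also made in muscle. It had 3.76, 18.8, 12.1, 12.8 and 9.64 CPM in Il23rΔTreg tumors and 4.42, 2.32, 4.93, 2.05 and 3.35 CPM in Il23rΔTreg adjacent normal tissue. In WT mice it had 5.74, 13.2 and 20.1 CPM in tumors and 2.45, 2.57 and 2.34 CPM in adjacent normal tissue. The tumor of mouse2901 was again the lowest Il23rΔTreg tumor, and the others lay among the WT tumors. Its log2 fold change was 1.74 (SE 0.39) in Il23rΔTreg mice, 2.41 (SE 0.52) in WT mice and -0.19 between the tumors, with a 95% interval from -1.13 to 0.74.

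Of the 11 adaptors and regulators, 5 were lower in Il23rΔTreg tumors than in their adjacent normal tissue, 6 were higher in WT tumors than in theirs, and 5 were lower in Il23rΔTreg than in WT tumors. Lat, the membrane scaffold on which the signal assembles, had 2.88, 2.93, 2.85, 2.91 and 2.04 CPM in Il23rΔTreg tumors, against 16.1, 12.4 and 9.17 CPM in WT tumors. In adjacent normal tissue it had 9.64, 3.76, 5.31, 2.77 and 3.03 CPM in Il23rΔTreg mice and 5.33, 3.13 and 1.95 CPM in WT mice. Apart from the WT tumors, only the adjacent normal library of mouse2901 was above 9 CPM for Lat. The log2 fold change between Il23rΔTreg and WT tumors was -2.20 (SE 0.38, adjusted p = 0.0203, edgeR), and it ran from -2.38 to -1.99 over the fits that left out a mouse or library.

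Skap1, an adaptor that couples the receptor to integrin adhesion, had 0.688, 0.610, 0.931, 1.14 and 0.538 CPM in Il23rΔTreg tumors and 4.07, 1.57, 2.07, 1.24 and 1.35 CPM in Il23rΔTreg adjacent normal tissue. It had 5.48, 3.65 and 3.11 CPM in WT tumors and 2.42, 1.76 and 1.19 CPM in WT adjacent normal tissue. Skap1 was lower in every Il23rΔTreg tumor than in any other sample. It fell in Il23rΔTreg tumors (log2 fold change -1.39, SE 0.36, adjusted p = 0.00458, edgeR), rose in WT tumors (1.19, SE 0.45, adjusted p = 0.0477, edgeR) and was lower in Il23rΔTreg than in WT tumors (-2.38, SE 0.40, adjusted p = 0.0203, edgeR). Cd2, Ptprcap and Rhoh were also called in these 3 comparisons in the same directions. Of these 4 genes, Rhoh lost its call within Il23rΔTreg mice with the mouse as a block (log2 fold change -0.99), and only Ptprcap kept that call without mouse2901.

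Ptprcap, a small membrane protein that associates with CD45 in T and B cells, had 1.18, 2.46, 2.10, 2.65 and 1.57 CPM in Il23rΔTreg tumors and 16.4, 5.68, 6.85, 2.29 and 3.92 CPM in Il23rΔTreg adjacent normal tissue. It had 17.5, 12.1 and 6.76 CPM in WT tumors and 5.47, 3.11 and 2.30 CPM in WT adjacent normal tissue. Its log2 fold changes were -1.82 (SE 0.46) in Il23rΔTreg mice, 1.74 (SE 0.59) in WT mice and -2.61 (SE 0.51) between the tumors. Grap2, the adaptor GADS that links LAT to SLP-76, had 2.34, 2.65, 2.68, 3.69 and 2.98 CPM in Il23rΔTreg tumors and 16.7, 4.84, 12.4, 4.92 and 6.07 CPM in Il23rΔTreg adjacent normal tissue. It had 5.35, 11.4 and 7.79 CPM in WT tumors and 9.05, 5.54 and 6.35 CPM in WT adjacent normal tissue. Like Cd4, Grap2 was lowest in the 5 Il23rΔTreg tumors (log2 fold change against adjacent normal tissue -1.65, SE 0.35) and overlapped between the WT tissues (0.24, SE 0.43). Between the tumors it just missed the threshold (-1.52, SE 0.38, adjusted p = 0.0519, edgeR).

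The remaining adaptors and regulators were at lower levels or nearer the threshold. Lcp2, which encodes SLP-76 and is also made in myeloid cells and platelets, had 9.08 to 15.1 CPM in Il23rΔTreg tumors and 18.4 to 24.7 CPM in WT tumors, and was called within WT mice alone (log2 fold change 1.26, SE 0.35). Ubash3a, a phosphatase family protein that restrains the signal, had 0.596 to 0.829 CPM in Il23rΔTreg tumors and 3.17 to 3.85 CPM in WT tumors (log2 fold change -2.26, SE 0.42, called). Themis, required in thymocyte selection, had 0.154 to 0.515 CPM in Il23rΔTreg tumors and 1.25 to 2.67 CPM in WT tumors (-2.51, SE 0.51, called). These 3 genes did not overlap between the tumors.

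Trat1, a transmembrane adaptor of the receptor, had 0.0224 to 0.334 CPM (1 to 14 counts) in Il23rΔTreg tumors and 0.470 to 1.33 CPM in WT tumors. Sh2d1a, the adaptor SAP, had 0.0421 to 0.247 CPM (3 to 12 counts) in Il23rΔTreg tumors and 0.617 to 1.25 CPM in WT tumors. Their log2 fold changes between the tumors, -2.19 (SE 0.61) and -2.50 (SE 0.69), missed the threshold in edgeR and passed it in DESeq2 and in a voom fit with the mouse as a block. Sit1, an inhibitory transmembrane adaptor, had 0.225 to 0.762 CPM in Il23rΔTreg tumors and 1.73 to 2.63 CPM in WT tumors (-2.14, SE 0.57). It was not called by edgeR but was by DESeq2 and by that voom fit. Rasgrp1, the exchange factor that activates RAS, had 2.92 to 5.01 CPM in Il23rΔTreg tumors and 5.78 to 12.7 CPM in WT tumors (-1.23, SE 0.41). It was called by DESeq2 but not by edgeR or the voom fit.

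The 2 transcription factors were not lower in Il23rΔTreg tumors. Lef1, a partner of beta-catenin that is used in T cells and is itself induced by Wnt signaling in epithelium, had 15.1, 31.1, 29.2, 22.0 and 23.9 CPM in Il23rΔTreg tumors and 2.26, 1.08, 3.22, 0.909 and 2.02 CPM in Il23rΔTreg adjacent normal tissue. It had 12.5, 18.7 and 26.1 CPM in WT tumors and 2.29, 1.15 and 1.25 CPM in WT adjacent normal tissue. Every tumor lay above every adjacent normal sample in both genotypes, with log2 fold changes of 3.67 (SE 0.36, adjusted p = 2.31e-06, edgeR) in Il23rΔTreg mice and 3.62 (SE 0.47, adjusted p = 7.65e-05, edgeR) in WT mice. The tumors of the genotypes overlapped (0.34, 95% interval from -0.46 to 1.15). Beside this, all 10 listed Wnt target genes were higher in the tumors of both genotypes, with summed levels of 1618 to 2498 CPM in Il23rΔTreg tumors, 112 to 242 CPM in Il23rΔTreg adjacent normal tissue, 1292 to 1868 CPM in WT tumors and 103 to 136 CPM in WT adjacent normal tissue. None of these 10 was at 0 throughout, and the part of epithelial cells in the Lef1 level was not tested.

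Bcl11b, a factor of T lineage commitment that is also made in some epithelia, had 38.0, 21.9, 24.1, 25.5 and 30.1 CPM in Il23rΔTreg tumors and 20.7, 15.1, 22.0, 18.8 and 19.1 CPM in Il23rΔTreg adjacent normal tissue. It had 22.2, 24.4 and 21.9 CPM in WT tumors and 19.0, 13.8 and 29.2 CPM in WT adjacent normal tissue. Its levels ranged from 13.8 to 38.0 CPM over all 16 samples, and the WT tissues overlapped. Bcl11b was higher in the tumor of each Il23rΔTreg mouse than in its own adjacent normal tissue, but the log2 fold change of 0.54 (SE 0.19) was under the fold limit.

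Of the 4 lymphocyte GTPases and trafficking genes, 3 were lower in Il23rΔTreg tumors in both comparisons and 1 was higher in WT tumors than in their adjacent normal tissue. With the mouse as a block, Gimap4 and Rhoh had log2 fold changes of -0.97 and -0.99 within Il23rΔTreg mice, just under the fold limit, and only Gimap3 was called in both. Without mouse2901, too, only Gimap3 was called in both. Within Il23rΔTreg mice the log2 fold change was then -0.81 for Gimap4 and -0.62 for Rhoh (adjusted p = 0.0837 for Rhoh, edgeR). Gimap3, a GTPase of the immunity-associated family that supports T cell survival in mice, had 2.78, 6.34, 5.27, 7.10 and 4.35 CPM in Il23rΔTreg tumors and 32, 10.4, 20.8, 6.47 and 12.7 CPM in Il23rΔTreg adjacent normal tissue. It had 18.7, 34.9 and 24.5 CPM in WT tumors and 15.4, 10.1 and 9.38 CPM in WT adjacent normal tissue. The Il23rΔTreg tumors were the lowest of the groups, with an overlap by mouse2904 alone, whose adjacent normal level was under its own tumor level. The log2 fold change was -1.67 (SE 0.38, adjusted p = 0.00193, edgeR) against adjacent normal tissue and -2.33 (SE 0.42, adjusted p = 0.0203, edgeR) against WT tumors.

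Gimap4, a family member that acts in T cell death and survival, had 10.7, 8.33, 10.4, 11.5 and 10.5 CPM in Il23rΔTreg tumors and 42.8, 12.0, 28.8, 10.7 and 20.1 CPM in Il23rΔTreg adjacent normal tissue. It had 26.8, 42.6 and 29.8 CPM in WT tumors and 21.3, 16.3 and 15.1 CPM in WT adjacent normal tissue. The Il23rΔTreg tumors lay below all WT samples (log2 fold change against WT tumors -1.69, SE 0.34, adjusted p = 0.0267, edgeR). The other 6 Gimap genes on the list gave 4 lower in Il23rΔTreg tumors than in their adjacent normal tissue, 4 lower than in WT tumors and 0 called within WT mice. Gimap7 among them had log2 fold changes of -1.91 (SE 0.36) and -2.50 (SE 0.39) in those comparisons of Il23rΔTreg tumors.

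Rhoh, a GTPase that helps bring ZAP-70 to the receptor, had 1.98 to 3.51 CPM in Il23rΔTreg tumors and 7.79 to 10.5 CPM in WT tumors (log2 fold change -1.82, SE 0.40, called). Cytip, which binds cytohesins and regulates adhesion of leukocytes, had 11 to 17.1 CPM in Il23rΔTreg tumors and 25.2 to 32.4 CPM in WT tumors (-0.98, SE 0.33, not called). Neither gene overlapped between the tumors.

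Adjacent normal tissue of Il23rΔTreg mice was compared with that of WT mice to see whether the genotypes differed outside the tumors. Of the 32 genes 0 were called, where 0.00584% of all genes were higher and 0% lower. By edgeR 0 of the 32 had an unadjusted p under 0.05 in either direction, against 2.44% of all genes higher and 1.72% lower, and DESeq2 called 0 too. The groups overlapped for all 32, where 1.59% of all genes were higher and 1.4% lower without overlap. The log2 fold changes ran from -0.11 (Bcl11b) to 0.96 (Ptprcap, SE 0.53), with a median of 0.37, and the 95% intervals reached from -1.42 to 2.29. Differences within these intervals were not detectable with these samples.

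The change from adjacent normal tissue to tumor was then compared between the genotypes in the interaction term. Of the 32 genes 0 passed an adjusted p of 0.05 (lowest 0.159, edgeR's quasi-likelihood test), as did 0% of all genes in either direction, while DESeq2 called 21 of the 32 lower, and 339 of all genes lower and 59 higher. At an unadjusted p under 0.05, 27 of the 32 were lower, against 7.74% of all genes, and 0 were higher, against 6.1%. The difference of the log2 fold changes was -2.44 for Cd3g (95% interval from -3.68 to -1.2), -2.70 for Lat (from -3.90 to -1.51) and -3.56 for Ptprcap (from -5.16 to -1.97). It was -0.67 for Zap70 (from -2.02 to 0.67), -0.67 for Prkcq (from -2.01 to 0.67) and 0.05 for Lef1 (from -1.11 to 1.22). The intervals of these last genes include 0, so no difference of their tumor change between the genotypes was shown.

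Seen mouse by mouse, 26 of the 32 genes were higher in the tumor than in the adjacent normal tissue of each WT mouse, against 29.3% of all genes. In Il23rΔTreg mice, 6 genes (Cd4, Txk, Grap2, Skap1, Trat1 and Rhoh) were lower in the tumor of each mouse, against 26.4% of all genes, and Lef1 and Bcl11b were higher in each, against 25.6%. Skap1, Trat1 and Rhoh moved in opposite directions in every mouse of the genotypes, though Trat1 had only 1 to 14 counts in Il23rΔTreg tumors. The Il23rΔTreg mice differed among themselves, with 30, 18, 27, 8 and 24 of the 32 genes lower in the tumor than in the same mouse's adjacent normal tissue. Mouse mouse2904, with 8, had the lowest adjacent normal value of its group for 23 genes. The shares of all genes lower in a single mouse, or opposite between the genotypes in every mouse, were not counted.

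The levels were also set against the leukocytes in each sample. The summed CPM of 8 pan-leukocyte markers was 207, 234, 244, 232 and 167 in Il23rΔTreg tumors and 702, 227, 351, 155 and 309 in Il23rΔTreg adjacent normal tissue. It was 509, 566 and 440 in WT tumors and 347, 214 and 206 in WT adjacent normal tissue. The sum of these markers was thus higher in each WT tumor than in any Il23rΔTreg tumor, but 0 of the 8 were called between the tumors. Ptprc among them overlapped, with 34.9 to 52.6 CPM in Il23rΔTreg tumors and 33.4 to 123 CPM in WT tumors. The summed CPM of the 4 CD3 and zeta genes was 3.29 ± 0.483% of that sum in Il23rΔTreg tumors, 3.36 ± 0.703% in Il23rΔTreg adjacent normal tissue (SD, n = 5 each), 6.26 ± 1.41% in WT tumors and 3.32 ± 1.28% in WT adjacent normal tissue (SD, n = 3 each). The 3 WT tumors, at 7.88, 5.34 and 5.56%, lay above every other sample, the next being 4.29%.

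Per pan-leukocyte CPM, all Il23rΔTreg tumors were below all WT tumors for 15 of the 32 genes, against 0.584% of all genes. These were Cd3d, Cd3e, Cd3g, Cd247, Cd2, Cd5, Cd6, Txk, Lat, Skap1, Sit1, Ubash3a, Ptprcap, Rhoh and Gimap3. All WT tumors were above all WT adjacent normal samples for 14 genes, against 5.69% of all genes, and all Il23rΔTreg tumors were below all their adjacent normal samples for 4 (Cd2, Grap2, Ptprcap and Gimap3), against 4.8%. Within Il23rΔTreg mice Cd4, Skap1, Trat1 and Txk overlapped on this scale, although they did not in CPM. The divisor was itself higher in every WT tumor than in any Il23rΔTreg tumor or WT adjacent normal sample. This lowers the share of all genes below all WT tumors (7.09% in CPM) or above all WT adjacent normal samples (23.4% in CPM). The shares per pan-leukocyte CPM are thus no neutral background for the 32 genes.

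Set against the summed CD3 and zeta CPM, the other genes split. Lck gave 0.740 to 1.12 CPM per CD3 and zeta CPM in Il23rΔTreg tumors, 0.586 to 0.868 in Il23rΔTreg adjacent normal tissue, 0.631 to 0.759 in WT tumors and 0.594 to 0.828 in WT adjacent normal tissue. Lat gave 0.318 to 0.475 in Il23rΔTreg tumors, 0.383 to 0.470 in Il23rΔTreg adjacent normal tissue, 0.375 to 0.412 in WT tumors and 0.358 to 0.505 in WT adjacent normal tissue. Lat thus kept close to the CD3 and zeta sum in all 4 groups. The mean for Lck was higher in Il23rΔTreg tumors, at 0.905 ± 0.144 (SD, n = 5). It was 0.699 in Il23rΔTreg adjacent normal tissue, 0.691 in WT tumors and 0.699 in WT adjacent normal tissue, and the ranges overlapped. Zap70 gave 0.972 to 2.78 in Il23rΔTreg tumors, 0.217 to 0.314 in Il23rΔTreg adjacent normal tissue, 0.406 to 0.675 in WT tumors and 0.221 to 0.333 in WT adjacent normal tissue. Lef1 gave 2.40 to 4.36 in Il23rΔTreg tumors, 0.0901 to 0.296 in Il23rΔTreg adjacent normal tissue, 0.311 to 1.07 in WT tumors and 0.141 to 0.323 in WT adjacent normal tissue. For Zap70 and Lef1 the Il23rΔTreg tumors were highest without overlap, while Prkcq overlapped, with 0.620 to 2.45 in Il23rΔTreg tumors and 0.143 to 0.821 in WT tumors. Cd4 went the other way, with 0.609 to 1.61 in Il23rΔTreg tumors and 0.517 to 1.10 in WT tumors, against 1.5 to 4.98 in Il23rΔTreg and 2.54 to 4.05 in WT adjacent normal tissue.

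**Figure D4:**
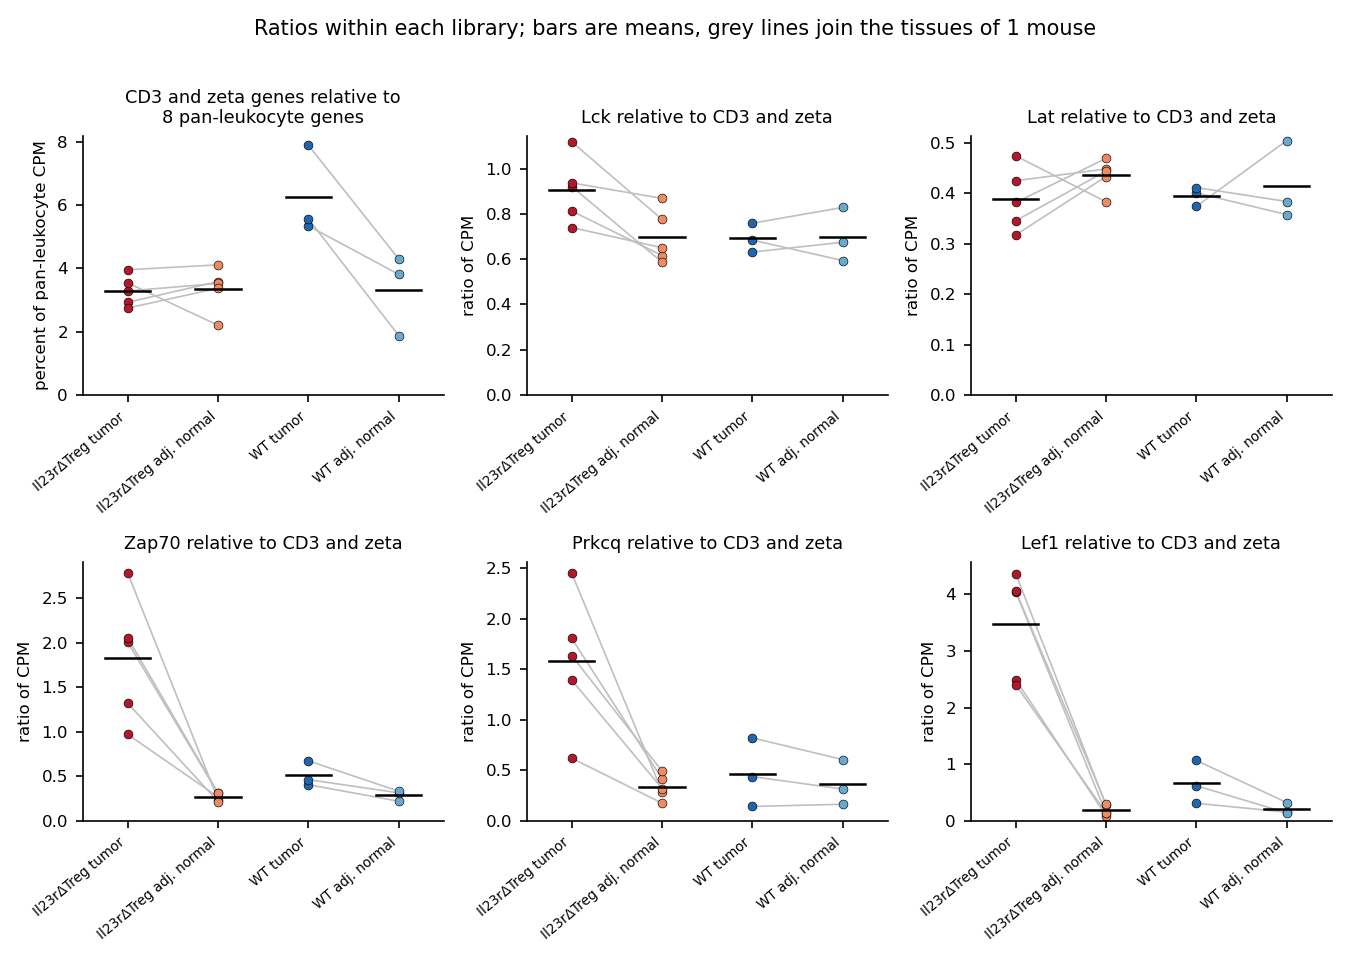
Summed CPM of the CD3 and zeta genes as a percentage of summed pan-leukocyte marker CPM, and CPM of Lck, Lat, Zap70, Prkcq and Lef1 per summed CD3 and zeta CPM, in each library of the 4 groups. The 3 WT tumors are highest in the panel of the CD3 and zeta percentage, and the Il23rΔTreg tumors are highest in those of Zap70 and Lef1.

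Other genes of the pathway moved less as a group. Of 40 listed T cell receptor signaling genes outside the 32, 38 were measured (Trac and Trbc1 were not analysed here). In Il23rΔTreg mice 0 were higher in tumors and 4 lower (Dgka, Map2k1, Sla2 and Tespa1), in WT mice 8 were higher and 3 lower, and 7 were lower in Il23rΔTreg than in WT tumors. Their median log2 fold changes were -0.25, 0.36 and -0.16 in these comparisons. The 7 included Trbc2, a constant region of the receptor's beta chain, with 3.13 to 3.56 CPM in Il23rΔTreg tumors and 10.7 to 20.9 CPM in WT tumors (log2 fold change -2.13, SE 0.46). They also included the CD8 coreceptor chains Cd8a (-2.24, SE 0.43) and Cd8b1 (-2.99, SE 0.56). Many of the other listed genes, such as Map2k1, are made in most cell types.

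Markers of T cell types went only in part with the 32 genes. Of 6 Treg markers, 0 were called in Il23rΔTreg mice, 5 rose in the tumors of WT mice, and 1 (Tnfrsf18) was lower in Il23rΔTreg than in WT tumors, with sums of 20.2 to 24.6 CPM in Il23rΔTreg tumors and 35.3 to 49.9 CPM in WT tumors. Foxp3, the factor that defines Treg cells, had 0.667 to 1.22 CPM in Il23rΔTreg tumors and 1.98 to 3.07 CPM in WT tumors. Of 9 CD8 and NK cytotoxic markers, which share Cd8a and Cd8b1 with the pathway list, 6 were lower in Il23rΔTreg than in WT tumors, with sums of 7.79 to 16.0 CPM in Il23rΔTreg tumors and 38.0 to 65.8 CPM in WT tumors. Against adjacent normal tissue, 1 of the 9 (Gzmb) was higher and 2 (Klrb1c and Ncr1) were lower in Il23rΔTreg tumors. In WT tumors 5 were higher and 0 lower. No gene of either list was at 0 throughout. The part of each T cell type in the levels of the 32 genes was not tested.

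Markers of other cells differed in direction. Of 10 B cell markers, 7 were lower in Il23rΔTreg than in WT tumors, with sums of 3.68 to 14.4 CPM and 29.0 to 133 CPM. Their median log2 fold change between the tumors was -3.23, against -1.88 for the 32 genes. Of 10 macrophage and monocyte markers, 4 were lower in Il23rΔTreg than in WT tumors, with sums of 358 to 596 CPM in Il23rΔTreg tumors and 1156 to 1241 CPM in WT tumors. All 6 neutrophil markers were higher in the tumors of both genotypes than in adjacent normal tissue, and 0 of them were called between the tumors (sums of 146 to 635 CPM in Il23rΔTreg tumors and 195 to 268 CPM in WT tumors). All 8 smooth muscle markers fell in the tumors of both genotypes. The part of these cells in the results was not tested.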

How the data were processed

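RNA of 16 samples from 8 mice was sequenced once each, with paired reads of 150 bases from a stranded polyA library. The authors deposited gene counts, which they made with fastp 0.20.0 and Salmon 1.4.0 and which are whole numbers, so that the Salmon estimates were rounded. The annotation release is uncertain, since 19493 of 19574 gene IDs carry a later version than in the GENCODE release M21, and no gene coordinates were taken from the counts. The deposited fold changes and p-values of the authors' own comparisons and 64 columns without a sample label here were not used. No libraries were identical (0 pairs). Depth was 34418067 to 60836474 counts per library, and counting error is largest for Trat1 and Sh2d1a.

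Counts were fitted in edgeR 4.0.16 (R 4.3.3, TMM, a minimum count of 10) with all 4 groups in 1 model on the whole table, by the quasi-likelihood test with Benjamini-Hochberg adjustment. The 5 contrasts were tumor against adjacent normal tissue in each genotype, Il23rΔTreg against WT for tumors and for adjacent normal tissue, and the interaction, for which no fold limit was used. Replicates are mice. Standard errors are the absolute log2 fold change divided by the square root of the F statistic. The code was tested on simulated data.

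The labels pair the tissues of a mouse. Deviations of the tissues of a mouse correlated from -0.266 (mouse2989) to 0.327 (mouse2990). Alternatives were DESeq2 1.42.0, limma 3.58.1 on log2 CPM with a prior count of 3, other normalizations and filters, a mouse term, and each mouse or library left out.

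The 32 genes, the other gene lists and the alternatives were chosen with earlier results of these data known, and leaving out each library other than the WT tumor of mouse2988 was added after seeing the data. Values were shown for every library for the 2 genes per role with the smallest p in Il23rΔTreg tumor against adjacent normal and against WT tumor, and for genes called against the direction of most. Intervals are 95% intervals of the fit.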

Additional observations from a re-analysis of the deposited data

Results flagged for a closer look

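In 8 of 64 groups of 5 samples (32 genes, 2 Il23rΔTreg tissues), 1 sample lay apart from the other 4, with a gap to the nearest of more than 0.71 of the group's range. Chance flags about 1 in 20 such groups. The adjacent normal library of mouse2901 accounted for 5 of the 8, each time as the highest. It had 6.04 CPM of Cd3e, where the other Il23rΔTreg adjacent normal samples had 1.28 to 1.93 CPM, and 56.8 CPM of Cd52, where they had 15.1 to 23.1 CPM. It had 6.75 CPM of Zap70 (the others 1.38 to 2.84 CPM), 21 CPM of Lcp2 (the others 7.38 to 11.2 CPM) and 2.22 CPM of Ubash3a (the others 0.654 to 1.03 CPM).

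Among Il23rΔTreg tumors, Cd3d was highest in mouse2902 at 1.81 CPM, where the others had 1.35 to 1.46 CPM. Cd3e was highest in the tumor of mouse2904 at 2.17 CPM, where the others had 1.10 to 1.24 CPM. Lat was lowest in the tumor of mouse3883 at 2.04 CPM, where the others had 2.85 to 2.93 CPM. All 5 Il23rΔTreg tumors remained below the WT tumors for these 3 genes.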

How the results depend on the processing

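Over 96 gene results (32 genes in the 3 comparisons that involve tumors), 54 of them called, 0 called results changed direction under any alternative, and 10 results that were not called did so at least once. The count of 11 genes lower in Il23rΔTreg tumors than in adjacent normal tissue became 5 with a log2 fold change beyond 1.5, 8 with the mouse as a block, and 4 to 14 with a mouse or library left out. The block, a mouse term in edgeR, lost Gimap4, Rhoh and Themis there, and gave 20 calls in place of 21 in WT mice and 0 in the interaction. With this block 2645 of all genes were lower in Il23rΔTreg tumors, against 2764 without it. In WT tumors 1997 of all genes were higher, against 2067. Between the tumors the block needed another method, limma's voom with the mouse as a correlation (0.127), which gave 22 calls in place of 19, so method and block changed together. It called 324 of all genes lower, against 271. The count of 21 higher in WT tumors became 7 to 24 with a mouse or library left out. The count of 19 lower in Il23rΔTreg than in WT tumors became 3 with library size alone as the scale, where 27 of all genes were lower, against 271. On that scale the median of all genes moved to 0.30 and that of the 32 genes to -1.55. With a mouse or library left out, the count of 19 became 0 to 24. The interaction count of 0 became 21 in DESeq2, which called 339 of all genes lower and 59 higher. For these changes the cause was not tested.

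Among genes not called in Il23rΔTreg mice, Il7r became 0.18 with limma, 0.0660 with library size alone, 0.15 with the mouse block and 0.00982 without Rn18s, and Lcp2 became -0.0428 with upper quartile scaling and -0.00470 with CPM over 1 in 3 libraries. With library size alone, Cd4 became 0.0401 in WT mice and Zap70 0.0112 between the tumors. With a mouse or library left out, values in Il23rΔTreg mice ran from -0.81 to 0.0710 for Cd3d, -0.29 to 0.23 for Il7r, -0.52 to 0.13 for Lck, -0.20 to 0.39 for Lcp2 and -1.02 to 0.43 for Sh2d1a. In WT mice they ran from -0.13 to 0.51 for Bcl11b, -0.42 to 0.37 for Cd4 and -0.23 to 0.68 for Grap2, and between the tumors from -0.55 to 0.26 for Prkcq. Where a group was left with few samples, the spread was pooled over all groups.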

Other observations

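In the tumor library of WT mouse2988, which had the highest Rn18s share, 13 of the 32 genes were at their highest among WT tumors and 10 at their lowest. The longest coding transcript of the 13 had a median length of 1235 bases, and that of the 10 had a median of 3561.5 bases, by GENCODE M21. The 10 included Prkcq, Il7r, Grap2 and Lef1, and the 13 included Cd3d, Cd3g, Lat and Ptprcap.

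B2m, the light chain of MHC class I and the 1 housekeeping gene of 12 called between Il23rΔTreg and WT tumors, was lower in Il23rΔTreg tumors (log2 fold change -1.87, SE 0.35) and rose in the tumors of WT mice (1.83, SE 0.42), as were most of the T cell receptor genes.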
